A study of Mus musculus with 8 samples.

Results

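The CC chemokines are small secreted proteins that guide leukocytes, and 10 of their genes were followed across the 4 groups of this RNA-seq experiment in mouse macrophages (Mϕ): Ccl2, Ccl3, Ccl4, Ccl5, Ccl6, Ccl7, Ccl9, Ccl12, Ccl17 and Ccl22. They were chosen by gene symbol, through the Ensembl identifier of each row and the mouse GENCODE annotation, and make up 10 of 55359 listed genes. All 10 had a mean of at least 10 normalized counts over the 8 samples, so that none was lost to the filter on low values. Bone marrow-derived Mϕ (BMDMs) of C57BL/6 wild-type mice, adults of both sexes, had been grown in all groups with M-CSF and GM-CSF (each 20 ng/mL). Ctrl BMDMs were cultured alone and left unstimulated, and LPS BMDMs were stimulated over 6 h with LPS (100 ng/mL) together with IFNγ (100 U/mL). Eff BMDMs had been kept for 16 h with dying NIH-3T3 CA fibroblasts, a single clone (D10) whose caspase-8 is switched on by 10 nM dimerizer, at 5 apoptotic cells per Mϕ, and were then washed. LPSEff BMDMs underwent this co-culture first and the same LPS/IFNγ stimulation afterwards. CD45+ cells were isolated from all groups with magnetic beads before RNA extraction. Each group held n = 2 samples, numbered 1 and 2, and nothing in the labels says that these came from separate animals or cultures, so that p-values measure only the spread between these samples.

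Chemokines of this family share 2 adjacent cysteines near the amino terminus and act on G protein-coupled receptors of migrating cells. Ccl2, Ccl7 and Ccl12 draw inflammatory monocytes through Ccr2. Ccl3, Ccl4 and Ccl5 attract monocytes, T cells and NK cells, in part through Ccr1. Ccl6 and Ccl9 are rodent ligands of Ccr1 that Mϕ and myeloid progenitors make at rest. Ccl17 and Ccl22 are ligands of Ccr4, carried by Th2 cells, regulatory T cells and skin-homing T cells, and are known products of dendritic cells and of alternatively activated Mϕ. LPS and IFNγ are classical inducers of many, but not all, of these genes in Mϕ, while the uptake of dying cells (efferocytosis) is generally regarded as anti-inflammatory.

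The 10 genes lie in 3 groups of neighbours in GRCm39. Ccl2, Ccl7 and Ccl12 occupy 68.07 kb of chromosome 11 (81926397 to 81994466). Ccl5, Ccl9, Ccl6, Ccl3 and Ccl4 follow on the same chromosome within 138.908 kb (83416602 to 83555509). Ccl22 and Ccl17 lie within 67.439 kb of chromosome 8 (95471226 to 95538664), both on the plus strand. All are protein-coding and have 2 to 6 exon blocks. The antisense lncRNA E230016K23Rik covers all 5206 bases of Ccl6 and 280 bases of Ccl9 and was listed at 3.81 to 57.1 normalized counts, against 6627 normalized counts or more for both chemokines. Antisense lncRNAs also overlap Ccl3 (Gm53692, 1522 bases) and Ccl5 (Gm73713, 2711 bases), and neither is among the listed genes.

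Sequence upstream of the start site was at hand from RefSeq (promoter table of GRCm38.p6) for 6 of the 10 genes: Ccl3, Ccl6, Ccl9, Ccl12, Ccl17 and Ccl22. Each window matched GRCm39 exactly at 1 place, from which the positions below were taken, and bases that GENCODE assigns to an exon of the gene were left out. The stretches of Ccl17 and Ccl22 are shown because these neighbours had fold changes of the same sign in each comparison. The neighbours Ccl2, Ccl7 and Ccl12 did as well, but of these only Ccl12 had a window. The stretches of Ccl6 and Ccl9 are shown because both genes stood apart from the other members under LPS/IFNγ. Each is written 5′ to 3′ in the direction of the gene, with matches to a searched motif in capitals.
Ccl17 (chr8:95536831-95537074, plus strand): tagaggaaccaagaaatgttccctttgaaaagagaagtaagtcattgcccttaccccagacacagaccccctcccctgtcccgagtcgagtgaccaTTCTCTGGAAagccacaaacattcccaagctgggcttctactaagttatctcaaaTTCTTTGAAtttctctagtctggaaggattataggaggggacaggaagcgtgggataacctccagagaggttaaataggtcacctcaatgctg
Ccl22 (chr8:95472062-95472217, plus strand): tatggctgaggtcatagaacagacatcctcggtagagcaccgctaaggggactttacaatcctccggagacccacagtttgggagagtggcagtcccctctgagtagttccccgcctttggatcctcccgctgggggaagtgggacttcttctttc
Ccl6 (chr11:83483914-83484163, minus strand): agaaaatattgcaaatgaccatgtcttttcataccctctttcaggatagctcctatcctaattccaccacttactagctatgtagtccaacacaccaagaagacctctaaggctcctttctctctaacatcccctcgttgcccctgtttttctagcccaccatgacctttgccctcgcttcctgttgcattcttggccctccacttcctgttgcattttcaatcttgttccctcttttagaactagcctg
Ccl9 (chr11:83469468-83469712, minus strand): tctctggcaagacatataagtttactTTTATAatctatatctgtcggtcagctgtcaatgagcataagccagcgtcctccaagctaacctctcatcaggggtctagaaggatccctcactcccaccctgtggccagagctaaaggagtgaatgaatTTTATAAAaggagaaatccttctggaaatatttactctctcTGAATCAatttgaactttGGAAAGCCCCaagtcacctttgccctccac
The 250 bases before each start were searched on both strands for the NF-κB consensus, TATAAA, an ISRE-like pair of GAAA separated by any 2 bases, TTC and GAA separated by 3 bases (STAT) or by 4 bases (STAT6-like), and TGANTCA (AP-1-like). Ccl17 held a STAT6-like match from -154 to -145 and a STAT match from -99 to -91, counted from -1 at the base before the RefSeq start, motifs present in 5.85% and 7.02% of the 32851 promoter windows of the same length. Ccl9 held a match to the NF-κB consensus from -35 to -26 (7.25% of windows), an AP-1-like match from -53 to -47 (6.75%) and 3 matches to TATAAA, of which 2 overlap (12.4% of windows hold at least 1). Ccl12 held 1 TATAAA match from -31 to -26. The windows of Ccl3, Ccl6 and Ccl22 held none of the searched letters. The RefSeq start lies 2723 bases from the first base of the GENCODE gene for Ccl17, 1086 for Ccl22 and 3699 for Ccl9, so that these windows do not lie at the outermost start. Matches are descriptions of sequence and no binding was measured.

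The reads recovered from the deposited values ranged from 3481288 (Ctrl sample 1) to 12020918 (Ctrl sample 2) per sample, and 3 reads corresponded to 1.73 to 5.71 normalized counts. Even the lowest value of a member, 79.7 normalized counts, was far above that floor. All 9 Mϕ markers were found in every group, with summed levels of 89134 to 145374 normalized counts. The summed level of 12 fibroblast markers was 1165 and 1209 in Ctrl, 2411 and 1959.9 in LPS, 4985 and 7732 in Eff and, for LPSEff, 12558 and 10112. Of these 12 genes, 7 were called higher in Eff than in Ctrl and 6 higher in LPSEff than in LPS, and none was at 0 in both samples of any group. The summed level of 8 dendritic cell markers was higher in sample 2 than in sample 1 of each group, at 3694 and 8429 in Ctrl, 3250.3 and 9971 in LPS, 2212 and 5559 in Eff and, for LPSEff, 2248 and 7467. The summed level of 8 neutrophil markers was 1118 and 723 in Ctrl, 1865 and 2213 in LPS, 1618 and 1143 in Eff and, for LPSEff, 2647 and 1868, so that the stimulated samples were all above the unstimulated ones. Lymphoid and mast cell markers summed to 28.0 to 158. In these bulk samples, fewer cells of a type and less RNA per cell cannot be told apart.

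In unstimulated Mϕ the CC chemokine transcripts were mostly Ccl6. Levels of different genes are compared here as normalized counts per kb of merged exons. In Ctrl, Ccl6 stood at 30258 and 22402 per kb, followed by Ccl2 at 6755 and 6673. Ccl9 (3519 and 2129), Ccl7 (2756 and 2692) and Ccl4 (2616 and 2607) came next, with the Ccl9 samples on either side of those of the other two. Ccl17 (1296 and 1738) and Ccl22 (1057 and 1421) also overlapped each other, and Ccl3 (537 and 392), Ccl12 (299 and 278) and Ccl5 (154 and 159) were lowest, each below the one before it in both samples. In LPS the order was different. Ccl22 reached 12086 and 23655 per kb and Ccl17 7449 and 21789, ranges that overlapped those of Ccl2 (19951 and 13398) and Ccl6 (14396 and 14655). In LPS sample 1, Ccl4 (14144) lay above Ccl22, and Ccl4, Ccl7 (9070) and Ccl5 (7644) lay above Ccl17. In LPS sample 2, Ccl4 (6810), Ccl7 (5739) and Ccl5 (4701) lay below both.

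The shift is seen in the make-up of the family. Of the summed per-kb level of the 10 genes, Ccl6 took 61.4% and 55.3% in Ctrl and 52.9% and 68.5% in Eff, but 15.1% and 15.2% in LPS and 25.1% and 28.3% in LPSEff. The share of Ccl22 was 2.15% and 3.51% in Ctrl, 12.7% and 24.5% in LPS, 0.845% and 1.22% in Eff and, for LPSEff, 6.94% and 7.54%. Ccl5 was under 1% in all 4 unstimulated samples and between 4.88% and 8.02% in all 4 stimulated ones. The 10 genes together took 1.24% and 0.924% of all normalized counts in Ctrl and 1.39% and 1.30% in Eff, and under stimulation 1.47% and 1.46% (LPS) and 1.30% and 1.34% (LPSEff). Across the 8 samples this share of the 10 genes ranged from 0.924% to 1.47%. Their summed normalized counts were 81933 and 64228 in Ctrl, 124704 and 138527 in LPS, 91658 and 89602 in Eff and, for LPSEff, 116248 and 127461. The total of all normalized counts was also higher in each stimulated sample than in every unstimulated one.

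**Figure D1:**
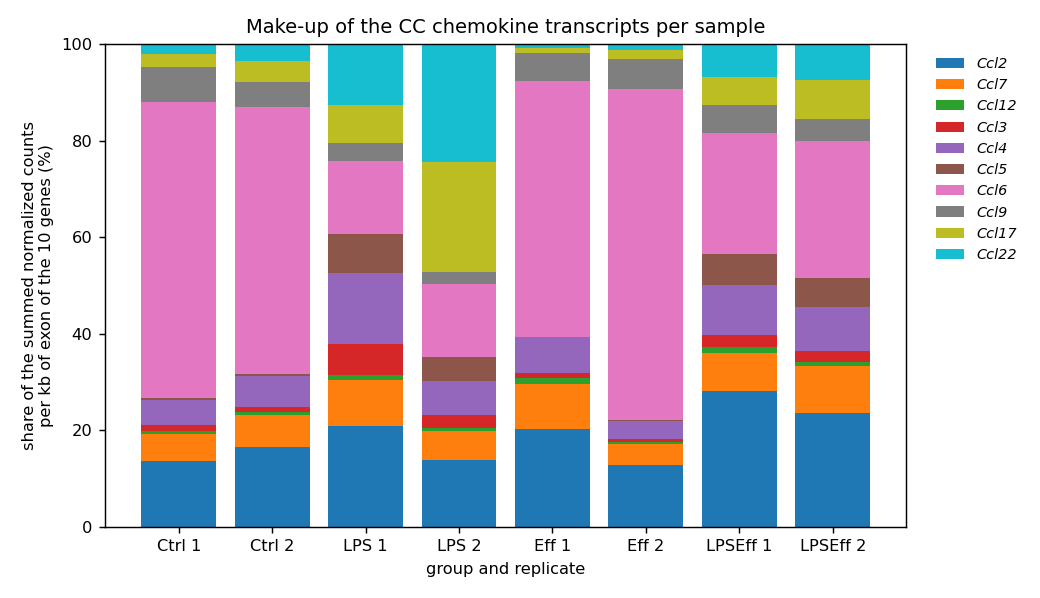
Stacked bars show, for each of the 8 samples (x axis: group and replicate), the percentage that each CC chemokine took of the summed normalized counts per kb of exon of the 10 genes (y axis, 0 to 100%). Ccl6 took between 52.9% and 68.5% in the 4 unstimulated samples and between 15.1% and 28.3% in the 4 stimulated ones.

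To ask how LPS/IFNγ changes the family in naïve Mϕ, LPS was compared with Ctrl. Ccl2, Ccl3, Ccl4, Ccl5, Ccl7, Ccl17 and Ccl22 rose, Ccl12 was higher and Ccl6 lower without passing the test, and Ccl9 showed no detectable difference. Thus 7 of 10 members were called higher and 0 lower (limma on log2(normalized count + 1), Benjamini-Hochberg adjusted p under 0.05), where 12.4% of the 16309 genes tested were called higher and 11.6% lower. The median log2 fold change was 1.67 for the members and -0.011 for all genes tested. In 9 of 10 members the samples of LPS and Ctrl did not overlap, as in 59.3% of all genes tested. The same stimulus in efferocytic Mϕ (LPSEff vs Eff) gave 6 members called higher and 0 lower, where 10.7% of all genes were called higher and 8.95% lower, and the median log2 fold change was 1.43 against 0.0051 for all genes. All 10 members had non-overlapping samples there, as had 59.9% of all genes. Of the 9 Mϕ markers, 2 were called higher and 0 lower in LPS vs Ctrl (median log2 fold change -0.049). In LPSEff vs Eff, 3 were called higher and 0 lower (median 0.18). Markers of other cell types moved with the stimulus as well. Of the neutrophil markers, all 6 tested had a positive log2 fold change in both comparisons, with 3 called higher and a median of 1.19 in LPS vs Ctrl and 1 called higher and a median of 0.66 in LPSEff vs Eff. The 11 fibroblast markers tested had medians of 1.32 (3 called higher) and 1.01 (1 called higher). Neither Ctrl nor LPS BMDMs had been co-cultured with fibroblasts. The part of these cell types in the chemokine values was not tested. With 2 samples on either side an exact permutation test reaches p = 0.333 at best, and the p-values therefore rest on the spread that limma shares across genes.

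**Figure D2:**
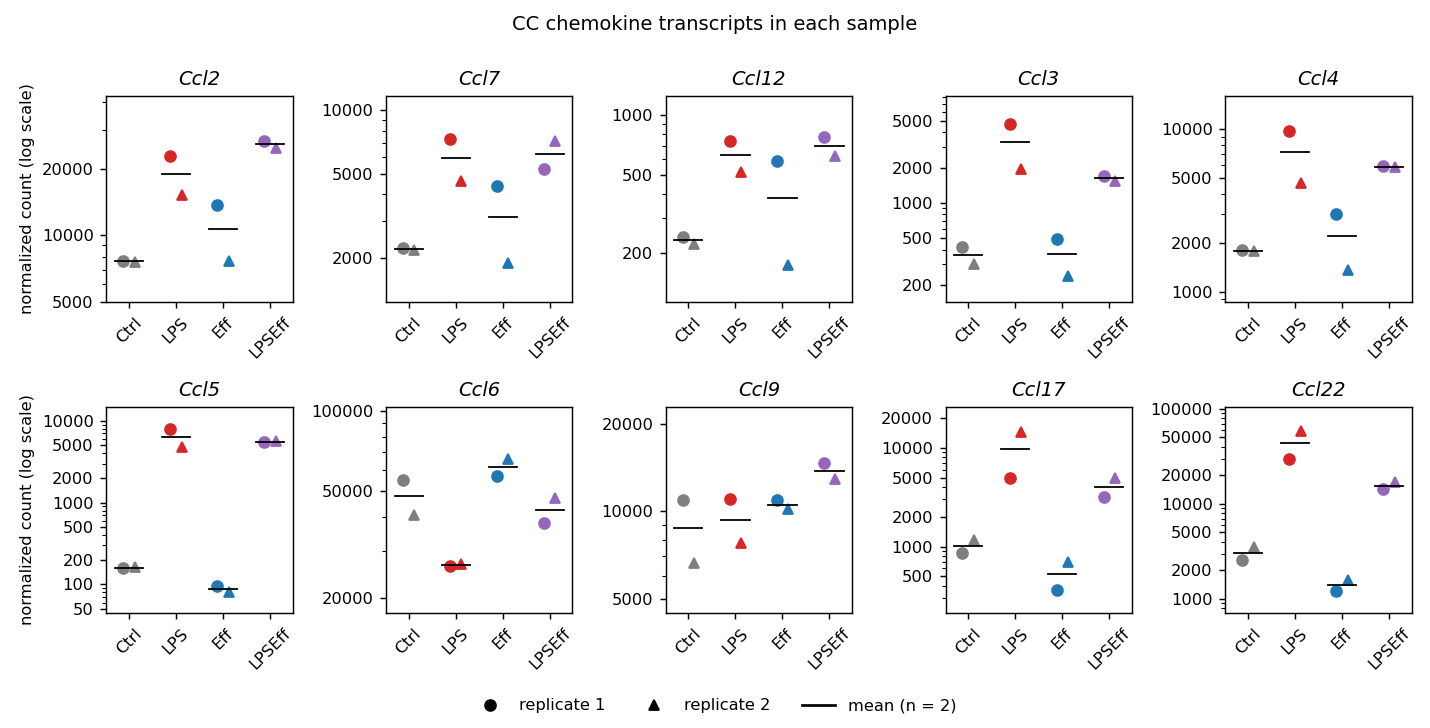
Normalized counts (y axis, log scale) of each CC chemokine in the 4 groups, with circles for replicate 1, triangles for replicate 2 and a line at the mean (n = 2). Ccl5 was between 79.7 and 163 in the unstimulated samples and between 4828 and 7851 in the stimulated ones, whereas the Ccl9 samples of Ctrl (6627 and 10955) and LPS (7755 and 11003) overlapped.

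Of the 3 ligands of Ccr2, Ccl2 rose in both contexts and Ccl7 in naïve Mϕ, and Ccl12 passed the test in neither. Ccl2, the main monocyte attractant of inflamed tissue, was at 7687 and 7594 normalized counts in Ctrl, 22704 and 15247 in LPS, 13681 and 7666 in Eff and, for LPSEff, 26781 and 24717. Both stimulated groups lay above both unstimulated ones, and Eff sample 1 stood above Eff sample 2. On the log2 scale Ccl2 rose by 1.28 ± 0.32 (SE, with a limma adjusted p = 0.0212) in LPS vs Ctrl and by 1.33 ± 0.32 (adjusted p = 0.0209) in LPSEff vs Eff. Ccl7, which shares Ccr2 with Ccl2, was at 2224 and 2173 in Ctrl, 7319 and 4632 in LPS, 4371 and 1893 in Eff and, for LPSEff, 5295 and 7173. Its rise passed the test in naïve Mϕ (1.40 ± 0.39, adjusted p = 0.034), while the 1.10 ± 0.39 in efferocytic Mϕ did not (adjusted p = 0.0887, but 0.0456 with DESeq2 and 0.0228 without Eff sample 1). Ccl12, a further mouse Ccr2 ligand, was the least abundant of the 3, at 239.9 and 223 in Ctrl, 745 and 519 in LPS, 584 and 174 in Eff and, for LPSEff, 779.8 and 623. Its stimulated samples were all above the Ctrl samples, but Eff sample 1 lay within the range of LPS. The log2 fold changes of Ccl12 were 1.42 ± 0.49 (adjusted p = 0.0689) and 1.13 ± 0.49 (adjusted p = 0.149). The former passed with DESeq2 (adjusted p = 0.00845) and with limma when only LPS and Ctrl were fitted (adjusted p = 0.0136). The latter was 2.00 without Eff sample 1 and 0.26 without Eff sample 2. The calls of Ccl2 and Ccl7 depended on single libraries and on scaling. Without Ctrl sample 1, Ctrl sample 2 or LPS sample 1, Ccl2 had an adjusted p of 0.0921, 0.0961 or 0.104 and Ccl7 of 0.125, 0.131 or 0.157 in LPS vs Ctrl, and after rescaling all samples to equal totals, which moved the median gene by -0.39 (and by -0.44 in LPSEff vs Eff), it was 0.0829 for Ccl2 and 0.0983 for Ccl7. In LPSEff vs Eff the call of Ccl2 was lost without Eff sample 2 (adjusted p = 0.14), LPSEff sample 1 (0.101) or LPSEff sample 2 (0.0694) and after rescaling (0.0849).

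Of Ccl3, Ccl4 and Ccl5, Ccl5 changed most. Ccl5 (RANTES), which attracts T cells and monocytes, was at 158 and 163 normalized counts in Ctrl, 7851 and 4828 in LPS, 94.6 and 79.7 in Eff and, for LPSEff, 5523 and 5617. The stimulated samples were all far above the unstimulated ones. The fold change was 38.1 in LPS vs Ctrl (log2 fold change 5.25 ± 0.24, adjusted p = 1.35e-05) and 63.4 in LPSEff vs Eff (5.99 ± 0.24, adjusted p = 6.66e-06). Ccl3 (MIP-1α) was at 417 and 304 in Ctrl, 4709 and 1946 in LPS, 497 and 237 in Eff and, for LPSEff, 1703 and 1538. It rose 8.48-fold in naïve Mϕ (3.08 ± 0.45, adjusted p = 0.00221) and 4.70-fold in efferocytic Mϕ (2.23 ± 0.45, adjusted p = 0.0109). The size of the first value depended on the LPS library, with 5.45-fold without LPS sample 1 and 13.2-fold without LPS sample 2, and the second was no longer called without Eff sample 2 (adjusted p = 0.0663) or LPSEff sample 1 (0.0624). Ccl4 (MIP-1β), its neighbour in the genome, was at 1798 and 1791 in Ctrl, 9717 and 4678 in LPS, 3016 and 1363 in Eff and, for LPSEff, 5918 and 5833. The stimulated samples were above the unstimulated ones throughout, with log2 fold changes of 1.91 ± 0.42 (adjusted p = 0.0128) and 1.53 ± 0.42 (adjusted p = 0.0353). The call of Ccl4 in LPS vs Ctrl was lost without Ctrl sample 1, Ctrl sample 2 or LPS sample 1 (adjusted p = 0.0671, 0.0666 and 0.0598). The call in LPSEff vs Eff was lost without either Ctrl, without either LPSEff sample or without Eff sample 2 (0.0603 to 0.192), with edgeR (0.0581) and after rescaling (0.103).

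The Ccr1 ligands Ccl6 and Ccl9 did not rise with the others. Ccl6, the most abundant member at rest, was at 55009.5 and 40727 normalized counts in Ctrl, 26171 and 26643 in LPS, 56875 and 65766 in Eff and, for LPSEff, 38184 and 47216. Both LPS samples lay below all other samples, and the LPSEff samples overlapped those of Ctrl. The log2 fold change of Ccl6 was -0.84 ± 0.27 in LPS vs Ctrl (adjusted p = 0.0564) and -0.53 ± 0.27 in LPSEff vs Eff (adjusted p = 0.225). In LPS vs Ctrl it passed the threshold with edgeR (adjusted p = 0.0488), with DESeq2 (0.00468), among genes with a mean of at least 50 (0.0363) and after rescaling to equal totals (-1.24, 0.00886), and in LPSEff vs Eff after rescaling (-0.98, 0.0243). Ccl9 was at 10955 and 6627 in Ctrl, 11003 and 7755 in LPS, 10958 and 10162 in Eff and, for LPSEff, 14696 and 12901. Its log2 fold changes of 0.12 ± 0.29 (95% interval -0.55 to 0.78) and 0.38 ± 0.29 (-0.28 to 1.05) did not pass (adjusted p = 0.823 and 0.417), and both turned negative after rescaling (-0.28 and -0.067).

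The Ccr4 ligands Ccl17 and Ccl22 rose together in both contexts. Ccl22 (MDC), which attracts Ccr4-bearing T cells, was at 2584 and 3472 normalized counts in Ctrl, 29538 and 57812 in LPS, 1221 and 1570.2 in Eff and, for LPSEff, 14179 and 16922. No 2 groups overlapped, with the order LPS, LPSEff, Ctrl and Eff from high to low. It rose 13.8-fold in LPS vs Ctrl (log2 fold change 3.79 ± 0.33, adjusted p = 0.000217) and 11.2-fold in LPSEff vs Eff (3.48 ± 0.33, adjusted p = 0.000303). Ccl17 (TARC), the other ligand of this receptor, was at 861 and 1154 in Ctrl, 4946 and 14468 in LPS, 362 and 692 in Eff and, for LPSEff, 3189 and 4920.4. The groups stood in the same order without overlap, although LPS sample 1 and LPSEff sample 2 were nearly equal. Its rise was 8.48-fold (3.08 ± 0.51, adjusted p = 0.00379) and 7.90-fold (2.98 ± 0.51, adjusted p = 0.00516), and the former was 14.5-fold without LPS sample 1 and 4.96-fold without LPS sample 2. The summed level of the dendritic cell markers was higher in sample 2 of each group, as were both genes. In Ctrl, Itgax alone gave 2386 and 6771 of the sum. Among the tested markers, Flt3, Zbtb46, Itgax, Xcr1 and Dpp4 were higher in sample 2 of every group. Kit was lower in sample 2 in Ctrl (983 and 863) and higher in sample 2 of the other groups. Clec9a and Cd209a did not pass the filter on low values and were not higher in sample 2 throughout. Of the 6 markers tested, 1 was called higher and 1 lower in LPS vs Ctrl (median log2 fold change 1.36, 4 positive). In LPSEff vs Eff, 0 markers were called higher and 1 lower (median 0.77, 5 positive). Their part in the values of Ccl17 and Ccl22 was not tested.

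**Figure D3:**
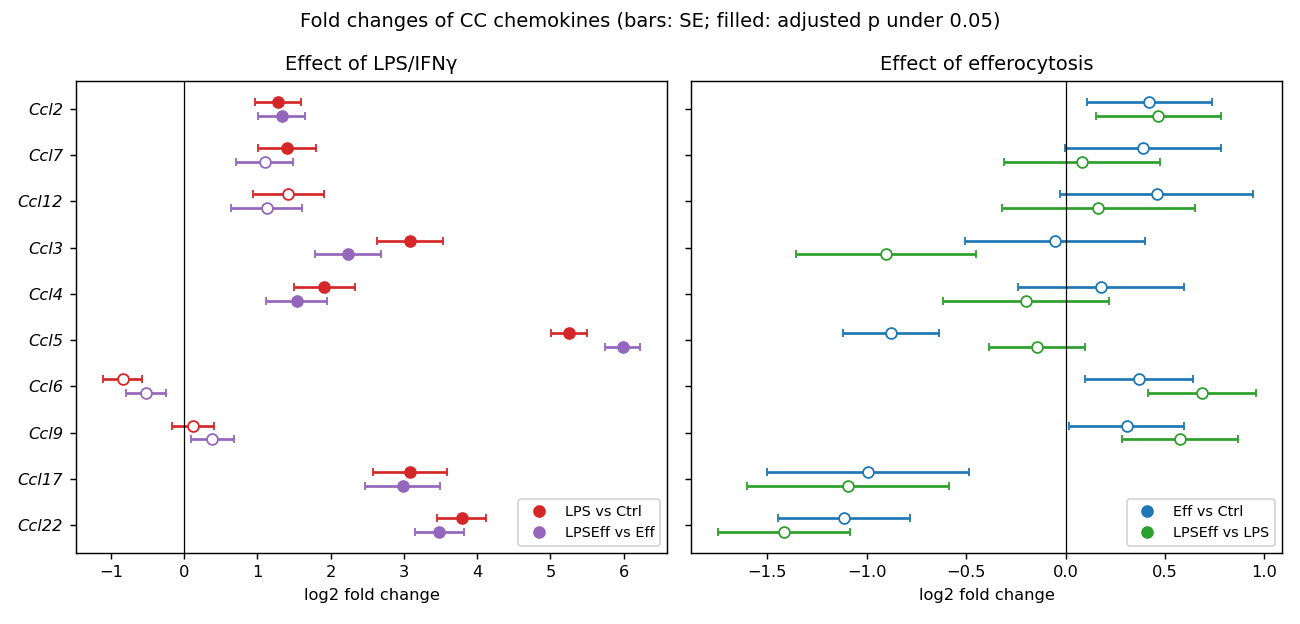
Log2 fold changes (x axis, bars show SE, n = 2 per group) of the 10 genes for LPS/IFNγ in naïve and efferocytic Mϕ (left) and for efferocytosis in unstimulated and stimulated Mϕ (right), with filled points where the limma adjusted p was under 0.05. On the left 7 and 6 points are filled, with Ccl5 farthest to the right (5.25 and 5.99), and on the right no point is filled and Ccl22 is farthest to the left (-1.11 and -1.42).

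Response size did not follow the neighbourhood in the same way in all 3 groups of genes. Ccl2, Ccl7 and Ccl12 had log2 fold changes in LPS vs Ctrl of 1.28, 1.40 and 1.42, which differ by less than their SE, and Ccl22 and Ccl17 had 3.79 and 3.08. In the largest group, by contrast, Ccl5, Ccl9, Ccl6, Ccl3 and Ccl4 had 5.25, 0.12, -0.84, 3.08 and 1.91 in genomic order. Ccl9 and Ccl6 thus lay between genes that were called higher on either side.

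**Figure D4:**
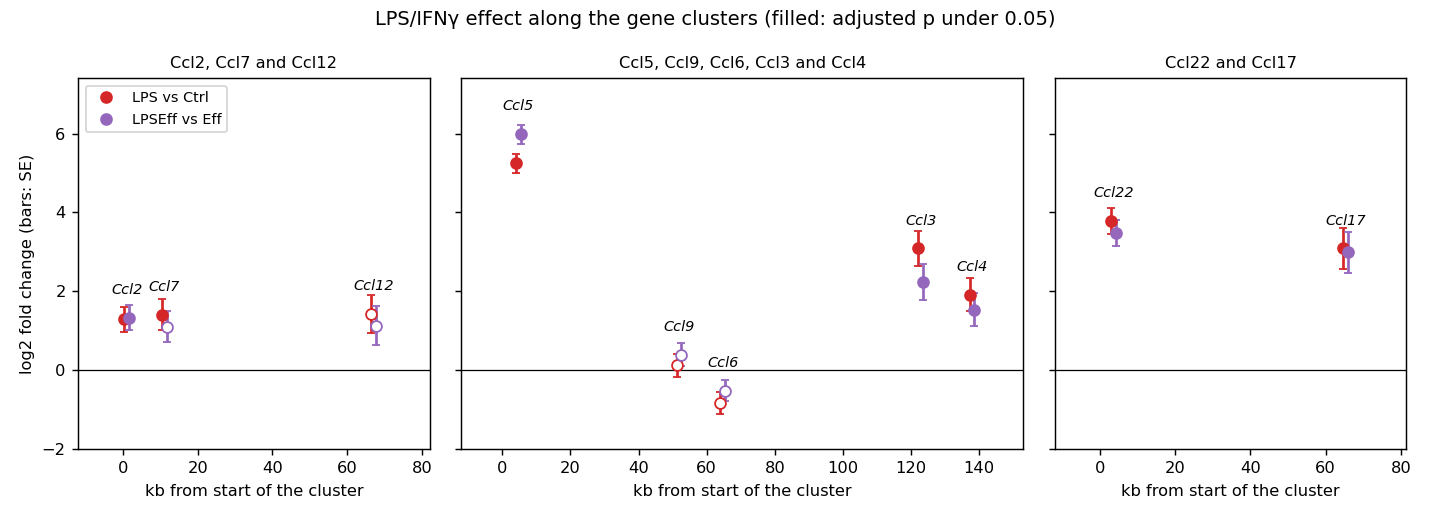
Log2 fold change (y axis, bars show SE) of LPS vs Ctrl and LPSEff vs Eff against the position of each gene's midpoint, in kb from the start of its group of neighbours (x axis), with filled points where the limma adjusted p was under 0.05. The points of Ccl9 (0.12 and 0.38) and Ccl6 (-0.84 and -0.53) sit between those of Ccl5 (5.25 and 5.99) and Ccl3 (3.08 and 2.23).

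To ask what efferocytosis alone does, Eff was compared with Ctrl. Dimerizer (10 nM) was present throughout the co-culture and is not listed for Ctrl or LPS. Its effect on the Mϕ cannot be told apart from that of efferocytosis here or in LPSEff vs LPS. Without a replicate block, no member was called by limma or by edgeR, and DESeq2 called Ccl22 (adjusted p = 0.0251), while of all genes tested 0.251% were called by limma, 0.0858% by edgeR and 1.27% by DESeq2. At an unadjusted p under 0.05, limma gave 2 members (Ccl5 and Ccl22), where 6.13% of all genes had one. In 4 of 10 members (Ccl5, Ccl6, Ccl17 and Ccl22) the samples of the groups did not overlap, as in 34.1% of all genes. Ccl22 had a log2 fold change of -1.11 ± 0.33 (adjusted p = 0.439), with both Eff samples (1221 and 1570.2) below both Ctrl samples (2584 and 3472). Ccl5 had -0.88 ± 0.24 (adjusted p = 0.378), from 158 and 163 in Ctrl to 94.6 and 79.7 in Eff. Ccl17 had -0.99 ± 0.51 (adjusted p = 0.931), with -0.53 without Eff sample 1. The remaining 7 members ranged from -0.053 (Ccl3) to 0.46 (Ccl12) with an adjusted p of 0.999 each. For Ccl2, Ccl3, Ccl4, Ccl7 and Ccl12, Eff sample 1 lay above both Ctrl samples and, for all but Ccl2, Eff sample 2 lay below them.

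Whether prior efferocytosis changes the stimulated level was addressed by LPSEff vs LPS. In fits without a replicate block, no member was called by limma or by edgeR and DESeq2 called Ccl22, where 0.773% of all genes were called by limma, 0.773% by edgeR and 2.26% by DESeq2. At an unadjusted p under 0.05, limma gave 2 members (Ccl6 and Ccl22), and 10.3% of all genes had one. The samples did not overlap in 6 of 10 members, as in 36.3% of all genes. Ccl3, Ccl17 and Ccl22 were lower (17% of all genes were) and Ccl2, Ccl6 and Ccl9 higher (19.3%) in both LPSEff samples. Ccl22 had the largest difference, with 14179 and 16922 normalized counts in LPSEff against 29538 and 57812 in LPS, a log2 fold change of -1.42 ± 0.33 (95% interval -2.18 to -0.65, adjusted p = 0.14 with limma, 0.106 with edgeR and 0.000179 with DESeq2). Ccl17 had -1.09 ± 0.51 (adjusted p = 0.528) and Ccl3 -0.90 ± 0.45 (adjusted p = 0.569). The size of these 3 differences rested on which LPS library was used. Without LPS sample 1 it was -1.90 for Ccl22, -1.87 for Ccl17 and -0.27 for Ccl3, and without LPS sample 2 it was -0.93, -0.32 and -1.54. In the other direction Ccl6 had 0.69 ± 0.27 (adjusted p = 0.428), Ccl9 0.58 ± 0.29 (0.57) and Ccl2 0.47 ± 0.32 (0.709). Ccl5 (-0.14), Ccl4 (-0.20), Ccl7 (0.082) and Ccl12 (0.16) overlapped between the groups. These 2 comparisons of efferocytic with naïve Mϕ share no samples. They come from 1 fit, however, and same-numbered samples deviated together between groups (r of 0.404 to 0.595). Agreement between the 2 comparisons therefore cannot be taken as that of separate experiments. For the 6 dendritic cell markers tested, the median log2 fold change was -0.53 (Eff vs Ctrl) and -0.62 (LPSEff vs LPS), 0 were called and all 6 were negative both times, as were Ccl17 and Ccl22. The fibroblast markers had medians of 3.54 and 4.27. The part of either cell type in these differences was not tested.

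Whether the LPS/IFNγ effect itself differed between efferocytic and naïve Mϕ was tested as an interaction. No member was called by limma, edgeR or DESeq2, none had an unadjusted p under 0.05 in limma, and over all genes tested 0% were called and 1.91% had an unadjusted p under 0.05. The difference between the 2 log2 fold changes was 0.73 ± 0.34 for Ccl5 (95% interval -0.048 to 1.52, unadjusted p = 0.0624) and -0.85 ± 0.64 for Ccl3 (-2.32 to 0.62, unadjusted p = 0.221), and the other members lay between these values. For Ccl22 it was -0.30 (-1.38 to 0.78) and for Ccl17 -0.10 (-1.75 to 1.55). These intervals, at n = 2, include 0 and also differences of over 1 on the log2 scale.

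The 2 samples of a group differed in a patterned way for several members. Ccl17 and Ccl22 were higher in sample 2 than in sample 1 in all 4 groups, by up to 1.55 (Ccl17) and 0.97 (Ccl22) on the log2 scale in LPS. Ccl2, Ccl3, Ccl4, Ccl9 and Ccl12 were lower in sample 2 in all 4 groups, and the difference reached -1.74 for Ccl12 in Eff. Ccl5, Ccl6 and Ccl7 had no common direction.

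Receptors were read from a list of 14 CC chemokine receptors, of which 9 had a mean of at least 10 normalized counts. Not all of them are receptors of the 10 members. In LPS vs Ctrl, 3 of the 9 were called higher and 2 lower, where 12.4% of all genes tested were called higher and 11.6% lower. Ccrl2, an atypical receptor that binds chemerin and is known as an LPS-induced gene, was at 80.0 and 93.1 normalized counts in Ctrl, 5490.4 and 4111 in LPS, 43.8 and 60.0 in Eff and, for LPSEff, 4354 and 4252. All stimulated samples were far above the rest (log2 fold change 5.77 ± 0.23, adjusted p = 9.5e-06, and 6.36 ± 0.23, adjusted p = 3.78e-06). Ccr7, the receptor for migration to lymph nodes, was at 1839 and 2128 in Ctrl, 7649 and 14409 in LPS, 1151 and 1296 in Eff and, for LPSEff, 6243 and 5719.9. It rose by 2.41 ± 0.29 (adjusted p = 0.000871) and 2.29 ± 0.29 (adjusted p = 0.00119). Ccr4, the receptor of Ccl17 and Ccl22, was low, at 5.71 and 9.83 in Ctrl, 46.6 and 38.6 in LPS, 13.1 and 9.17 in Eff and, for LPSEff, 105 and 67.3, and the value in Ctrl sample 1 rests on 3 reads. It rose by 2.35 ± 0.43 (adjusted p = 0.00609) and 2.83 ± 0.43 (adjusted p = 0.0031).

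Ccr2 and Ccr1 fell under LPS/IFNγ in naïve Mϕ. Ccr2, the receptor of Ccl2, Ccl7 and Ccl12, was at 1422 and 758 normalized counts in Ctrl, 243 and 219 in LPS, 1040.1 and 677 in Eff and, for LPSEff, 165 and 109. It fell in both contexts, with log2 fold changes of -2.16 ± 0.35 (adjusted p = 0.00349) and -2.63 ± 0.35 (adjusted p = 0.0016). Ccr1, the receptor of Ccl6 and Ccl9, was at 1261 and 1749 in Ctrl, 494 and 704 in LPS, 1562 and 1723 in Eff and, for LPSEff, 1052 and 1005. It fell by 1.33 on the log2 scale in naïve Mϕ (SE 0.23, adjusted p = 0.00506), and the -0.67 ± 0.23 in efferocytic Mϕ did not pass (adjusted p = 0.0827), although no gene tested was called in the interaction. Between efferocytic and naïve Mϕ no receptor was called by limma in either state, and 3 of 9 had an unadjusted p under 0.05 without stimulation and 2 of 9 under stimulation, against 6.13% and 10.3% of all genes. Ccr7 was among them both times, with -0.70 ± 0.29 and -0.81 ± 0.29 (adjusted p = 0.767 and 0.36). The other receptor under stimulation was Ccr1, which had a log2 fold change of 0.80 ± 0.23 (adjusted p = 0.237), both LPSEff samples being above both LPS samples.

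**Figure D5:**
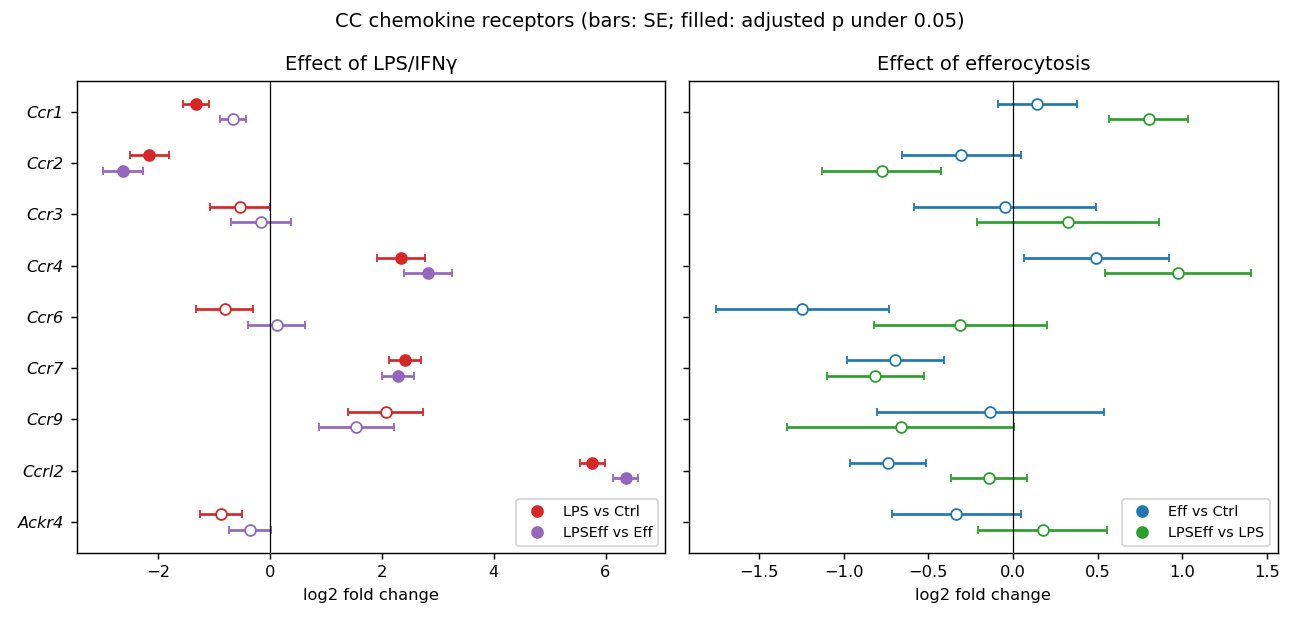
Log2 fold changes (x axis, bars show SE, n = 2 per group) of 9 CC chemokine receptors, for LPS/IFNγ (left) and for efferocytosis (right), with filled points where the limma adjusted p was under 0.05. Ccrl2, Ccr7 and Ccr4 are filled to the right and Ccr2 to the left in both LPS/IFNγ comparisons, Ccr1 is filled in LPS vs Ctrl only, and no point is filled on the right.

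Of 14 other CC ligands, 4 had a mean of at least 10 normalized counts and 4 (Ccl19, Ccl21b, Ccl26 and Ccl27b) were listed at 0 in every sample. Ccl1, a ligand of Ccr8, was the only one called, in LPS vs Ctrl (adjusted p = 0.00893), with 0 and 3 reads in Ctrl and 15 and 150 reads in LPS, and no fold change is given against such a base. Of 20 genes of receptor signalling and ligand processing, all tested, 2 were called higher and 2 lower in LPS vs Ctrl, which is no larger a share than the 12.4% and 11.6% of all genes. Rgs1, which dampens G protein signalling, rose by 1.89 ± 0.25 (adjusted p = 0.0013) and Pik3r5, a regulatory subunit of the G protein-activated PI3K, by 1.30 ± 0.26 (adjusted p = 0.00816). The β-arrestin gene Arrb1 and Rgs2 had log2 fold changes of -1.82 ± 0.25 (adjusted p = 0.0015) and -1.50 ± 0.33 (adjusted p = 0.0139). In LPSEff vs Eff the same 4 genes were called in the same directions (1.35, 1.28, -1.19 and -1.59), together with Plcb2, a phospholipase C (-1.53 ± 0.40, adjusted p = 0.0306), where 10.7% of all genes were called higher and 8.95% lower. None of the 20 was called by limma for efferocytosis, with 0 (Eff vs Ctrl) and 3 (LPSEff vs LPS) at an unadjusted p under 0.05, as had 6.13% and 10.3% of all genes.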

How the data were processed

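Total RNA of BMDMs was sequenced in 8 samples, 2 for each of the 4 groups. Per the methods, ribosomal RNA was depleted, single-end reads were adapter-trimmed (cutadapt), freed of remaining ribosomal reads (Bowtie2), aligned to mm39 (STAR) and assigned to genes by htseq-count with default settings, which count by strand. DESeq2 was used by the authors. The annotation release and the tool versions are not given in the sources used here. The values the authors deposited are normalized counts, a signal that divides each gene's reads by the size factor of its sample. They were whole multiples of the smallest nonzero value for 100% of genes (tolerance 0.01), which returned the recovered reads. Floors in reads cover counting error only. The labels give 7 days of differentiation and the methods a shorter period.

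GENCODE annotation of GRCm39 named 54749 of 55359 identifiers. Tests used limma 3.58.1 under R 4.3.3 on log2(normalized count + 1) with a mean-variance trend, for the 16309 genes averaging at least 10, all 4 group means in a single model (4 residual degrees of freedom) and Benjamini-Hochberg adjustment over these genes. Fold changes on this scale understate those of low genes. Alternatives were pseudocounts of 0.5 or 5, a filter at a mean above 0 or of 50, a replicate block, samples rescaled to equal totals, edgeR 4.0.16 and DESeq2 1.42.0 on recovered reads, fitting only the 2 groups compared, and leaving out each sample. A replicate block in edgeR was added after the values had been seen. The tests were checked on simulated counts. All 10 members are named, and of other lists the called genes, with values for the 5 largest per list and contrast. 1 gene is not reported here and was left out of the lists. The members, lists and tests were chosen with earlier results of these data known.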

Additional observations from a re-analysis of the deposited data

How the results depend on the processing

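Of the 50 results of single members (10 genes in 4 contrasts and the interaction), all kept their direction and their side of the threshold with pseudocounts of 0.5 and 5 and among genes with a mean above 0, and 49 did among genes with a mean of at least 50. The number of members called was within 1.5 times of 7 in LPS vs Ctrl and of 6 in LPSEff vs Eff under all alternatives except leaving out single samples, which gave 4 to 8 and 3 to 8. In these fits a group left with 1 sample is assumed to vary like the others. The counts of 0 members for efferocytosis, both without and under stimulation, became 1 and 1 with DESeq2 on recovered reads, while no member was called when any sample was left out. Among other list genes, DESeq2 called 1 in LPSEff vs LPS, and 14 in place of 9 were called in LPSEff vs Eff after rescaling to equal totals. Whether same-numbered samples are pairs is not given in the labels. Their deviations from the group means correlated with r of 0.404 to 0.595 between groups, which is a hint from the data and not from the design. With the replicate number as a block, limma called 9 and 8 members in LPS vs Ctrl and LPSEff vs Eff (41.2% and 37% of all genes), with Ccl12 (adjusted p = 0.00373) and Ccl6 (0.0118) added in the former and Ccl7 (0.0147) and Ccl12 (0.0146) in the latter, and 3 in Eff vs Ctrl (Ccl5, Ccl17 and Ccl22, all lower, with 2.67% of all genes) and 3 in LPSEff vs LPS (Ccl3, Ccl17 and Ccl22, all lower, adjusted p = 0.0442, 0.0172 and 0.00162, with 6.97% of all genes), and 21, 18, 3 and 7 other list genes in these 4 contrasts. edgeR with the replicate block, added after the values had been seen, called 2 (Eff vs Ctrl) and 3 (LPSEff vs LPS) members, and 21, 20, 3 and 8 other list genes. The interaction had 0 calls in each fit, and with the limma block 2 members had an unadjusted p under 0.05. Directions turned for values near 0: Ccl9 was -0.28 (LPS vs Ctrl) and -0.067 (LPSEff vs Eff) after rescaling to equal totals, Ccl3 in Eff vs Ctrl was 0.027 with edgeR and 0.030 with DESeq2, and the interaction of Ccl2 was -0.0041 after rescaling, -0.053 with edgeR and -0.071 with DESeq2. With single samples left out, the values ranged in LPS vs Ctrl from -0.25 to 0.48 for Ccl9. In Eff vs Ctrl they ranged from -0.58 to 0.48 for Ccl3, -0.40 to 0.75 for Ccl4, -0.22 to 0.99 for Ccl7, -0.054 to 0.67 for Ccl9 and -0.41 to 1.33 for Ccl12. In LPSEff vs LPS they ranged from -0.73 to 0.33 for Ccl4, -0.50 to 0.21 for Ccl5, -0.25 to 0.41 for Ccl7 and -0.096 to 0.43 for Ccl12. In the interaction they ranged from -0.37 to 0.46 for Ccl2, -0.95 to 0.20 for Ccl4, -0.91 to 0.30 for Ccl7, -0.095 to 0.63 for Ccl9, -1.17 to 0.58 for Ccl12, -0.88 to 0.67 for Ccl17 and -0.79 to 0.18 for Ccl22. The cause of these changes was not tested. The share of the 10 genes in all normalized counts was 1.48% in LPS with genes of a mean of at least 10 as the total, and 1.63%, 1.48% and 1.48% in LPS, Eff and LPSEff with protein-coding genes outside the mitochondrial genome as the total. Depth did not limit the members, whose lowest value was 79.7 normalized counts, but the Ctrl values of Ccl1 (0 and 3 reads) and Ccr4 (3 and 17 reads) were near the floor.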
